A study of Homo sapiens with 2 samples.

Results

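The mitotic kinesins are motor proteins that build the spindle, carry and align chromosomes on it, and divide the cell. The 10 genes described here are KIF11, KIF14, KIF15, KIF18A, KIF20A, KIF23, KIF2C, KIF4A, KIFC1 and CENPE. They were taken as every gene probe on the arrays that carried 1 of these symbols or an older alias. This gave 11 probes, 2 for KIF11 and 1 for each other gene, among 41000 probes for 30472 genes. All 10 genes were among the 19214 genes that were bright enough to be kept.

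Expression was measured in PC3, an established cell line from a prostate cancer metastasis, on 2 two-colour Agilent arrays that shared a slide. Cells transfected with 1 SUB1 siRNA duplex (labelled with Cy5) were set on 1 array against cells given non-targeting (Non-T) siRNA (labelled with Cy3), all harvested 72 h after the first transfection. SUB1 is a transcriptional coactivator, and the comparison addresses which genes change when it is depleted. Each duplex had 1 array and the dyes were not swapped, so a dye bias of a probe cannot be told apart from the knockdown. Both arrays compare with Non-T cells, and nothing in the labels says whether the cultures or RNA extracts of the arrays were separate. A log2 ratio below 0 means less signal in SUB1 knockdown cells, and -1 is 2-fold lower.

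A kinesin uses the energy of ATP to walk along microtubules or to take them apart. During mitosis different kinesins push the spindle poles apart, focus them, bring chromosomes to the middle, and later organise the midzone between the separated chromosomes, where the cleavage furrow forms. Most genes for these motors are transcribed mainly in G2 and M phase, so their level in bulk RNA also depends on how many cells are in those phases. In such RNA, fewer dividing cells and less RNA per dividing cell cannot be told apart.

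A known signature of G2 and M phase promoters is the cell cycle genes homology region (CHR), bound by the DREAM and MYB-MuvB complexes, with boxes for NF-Y upstream. The promoter of each gene, from RefSeq on GRCh38.p14, is shown from 70 bases before to 10 bases after its start, 5′ to 3′ on the gene's strand, because most members held a CHR or an NF-Y box, which the rule that chose them did not use. Capitals mark CHR (TTTGAA or TTCGAA), a CHR-like variant (TTTAAA, added after the sequences were seen), the NF-Y box (CCAAT) and E2F-like sites (TTTCGCGC, TTTGGCGC, TTTCCCGC or TTTGCCGC), each on either strand.
KIF11, chr10:92593060-92593139, plus strand: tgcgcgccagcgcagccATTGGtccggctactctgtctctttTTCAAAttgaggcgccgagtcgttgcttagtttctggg
KIF14, chr1:200620742-200620821, minus strand: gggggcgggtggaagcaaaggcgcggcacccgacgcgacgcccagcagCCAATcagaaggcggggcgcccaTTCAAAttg
KIF15, chr3:44761724-44761803, plus strand: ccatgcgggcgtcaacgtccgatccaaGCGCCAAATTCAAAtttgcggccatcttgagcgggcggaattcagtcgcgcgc
KIF18A, chr11:28108147-28108226, minus strand: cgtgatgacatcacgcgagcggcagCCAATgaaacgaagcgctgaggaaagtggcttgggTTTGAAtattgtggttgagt
KIF20A, chr5:138179042-138179121, plus strand: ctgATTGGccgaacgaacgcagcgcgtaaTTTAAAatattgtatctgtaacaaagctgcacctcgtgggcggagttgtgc
KIF23, chr15:69414279-69414358, plus strand: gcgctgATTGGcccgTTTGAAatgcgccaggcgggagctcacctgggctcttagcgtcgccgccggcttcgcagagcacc
KIF2C, chr1:44739767-44739846, plus strand: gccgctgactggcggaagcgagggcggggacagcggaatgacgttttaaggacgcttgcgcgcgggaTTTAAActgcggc
KIF4A, chrX:70290034-70290113, plus strand: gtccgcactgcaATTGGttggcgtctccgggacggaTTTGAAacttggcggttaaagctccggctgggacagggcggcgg
KIFC1, chr6:33391753-33391832, plus strand: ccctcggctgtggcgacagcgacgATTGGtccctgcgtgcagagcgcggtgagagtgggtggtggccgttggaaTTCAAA
CENPE, chr4:103198334-103198413, minus strand: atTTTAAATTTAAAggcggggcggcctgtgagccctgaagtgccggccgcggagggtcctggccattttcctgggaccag

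In this window of 80 bases, 7 of the 10 promoters held a CHR, namely those of KIF11, KIF14, KIF15, KIF18A, KIF23, KIF4A and KIFC1. Over all 35116 RefSeq promoters of the same table, 3.94% held one in the same window. The NF-Y box was in 7 of 10, beside 13.1% of all promoters, and 6 of 10 held both motifs, beside 0.624%. KIF20A, KIF2C and CENPE, the members without a CHR, each held the CHR-like variant, which 3.21% of all promoters had in this window. The E2F-like site stood in KIF15 only (0.9% of all promoters), directly before its CHR. In the whole promoters of 300 bases the same 7 members held a CHR, against 16.4% of all promoters, and the NF-Y box was in 7 of 10 against 34.6%. Both motifs were in 6 of 10 there, against 6.38% of all promoters. The window of 80 bases was not part of the plan, and it ends on the last base of the KIFC1 CHR. Its shares are therefore only descriptive. A match is a run of letters and not a measured binding site.

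**Figure D1:**
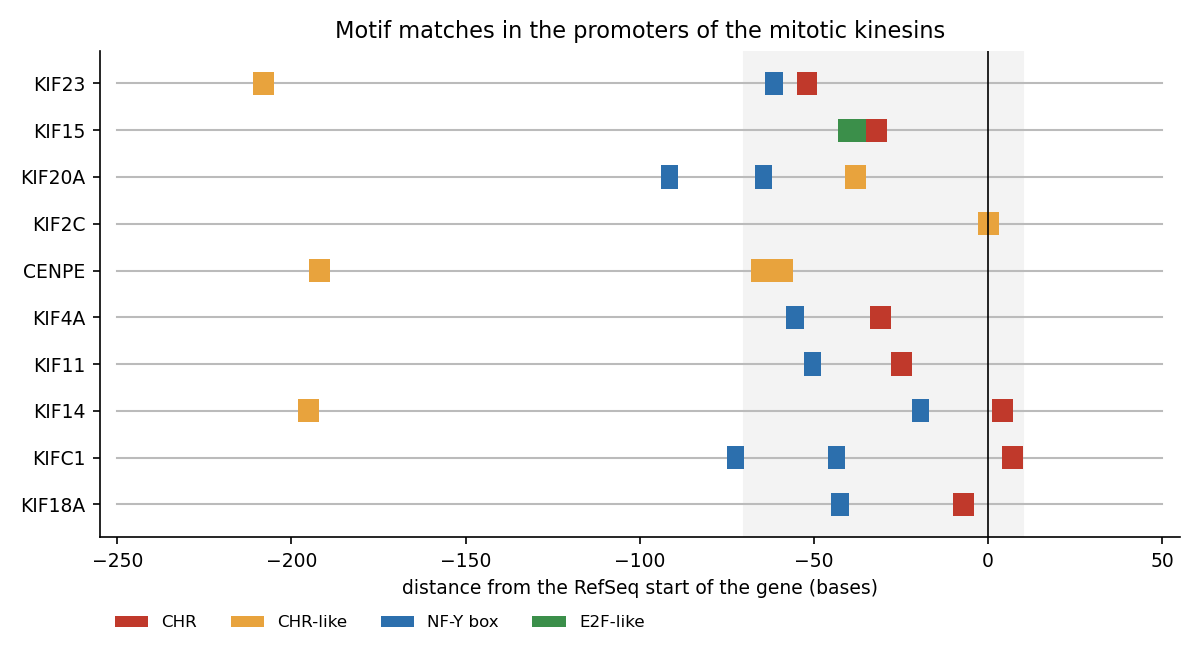
Motif matches in the 300-base promoter of each mitotic kinesin, with the distance from the RefSeq start in bases on the x axis and 1 gene per row, ordered by the log2 ratio with siRNA 2 (lowest on top). Red marks CHR, orange CHR-like, blue NF-Y box and green E2F-like; the grey band is the printed window, in which every gene has a red or an orange mark.

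The knockdown was checked first. SUB1 itself had log2 ratios of -3.30 with siRNA 1 and -3.26 with siRNA 2, and it was the only gene past an adjusted p of 0.05 in limma (adjusted p = 0.0249, Benjamini-Hochberg). Its 4 probes lay between -3.75 and -1.81 with siRNA 1 and between -3.50 and -1.57 with siRNA 2. Of the PC3 markers, KRT8, KRT18, VIM and CD44 were bright in Non-T cells, while the blood marker PTPRC was not well above background. CD3E, another blood marker, was kept, and its brighter probe read 128 and 110 in Non-T cells, above background on both arrays. KLK3, which PC3 cells are known to lack, gave 18634 on 1 of its 3 probes in Non-T cells, where the others were not well above background. Negative control spots, which have no target, read a median of 86.5 (Cy3) and 63.2 (Cy5) beside siRNA 1. Beside siRNA 2 their median was 78.6 (Cy3) and 61.2 (Cy5).

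Across the 10 mitotic kinesins, every gene had less signal in SUB1 knockdown cells on both arrays. The median log2 ratio was -0.70 with siRNA 1 and -0.84 with siRNA 2, against 0.02 and 0.02 over all genes kept. All 10 ratios were below 0 with each duplex, whereas 45.9% of all genes were below 0 with siRNA 1 and 46.4% with siRNA 2. The members were chosen with earlier results of these data known, so such counts are not an independent contrast. At least 2-fold lower signal, the rule of the study for a changed gene, was met by 1 of 10 with siRNA 1 (KIF23), beside 0.609% of all genes. With siRNA 2 it was met by 4 of 10 (KIF23, KIF15, KIF20A and KIF2C), beside 1.07% of all genes. When arrays were centred on their median in place of loess, KIF23 alone met it with siRNA 2 (0.526% of all genes). With the scanner software's processed signals, 5 of 10 (siRNA 1) and 8 of 10 (siRNA 2) met it, beside 1.55% and 2.47% of all genes. No member was higher with either duplex.

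The mean of both arrays was tested against 0 in limma over all genes kept. None of the 10 kinesins passed an adjusted p of 0.05, and their adjusted p lay between 0.112 (KIF23 and 6 others) and 0.217 (KIFC1). All 10 had an unadjusted p under 0.05 in the same fit, which 9.91% of all genes had with a lower mean, while 0.0052% of all genes were lower at an adjusted p of 0.05. With median centring, 9 of 10 had an unadjusted p under 0.05, beside 3.95% of all genes with a lower mean. With 2 arrays these p-values measure only the spread between them, and eBayes draws each gene's own spread toward that of all genes kept. How far the spread between the arrays covers that of the control is not known. The labels do not say whether the Non-T extracts were separate.

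**Figure D2:**
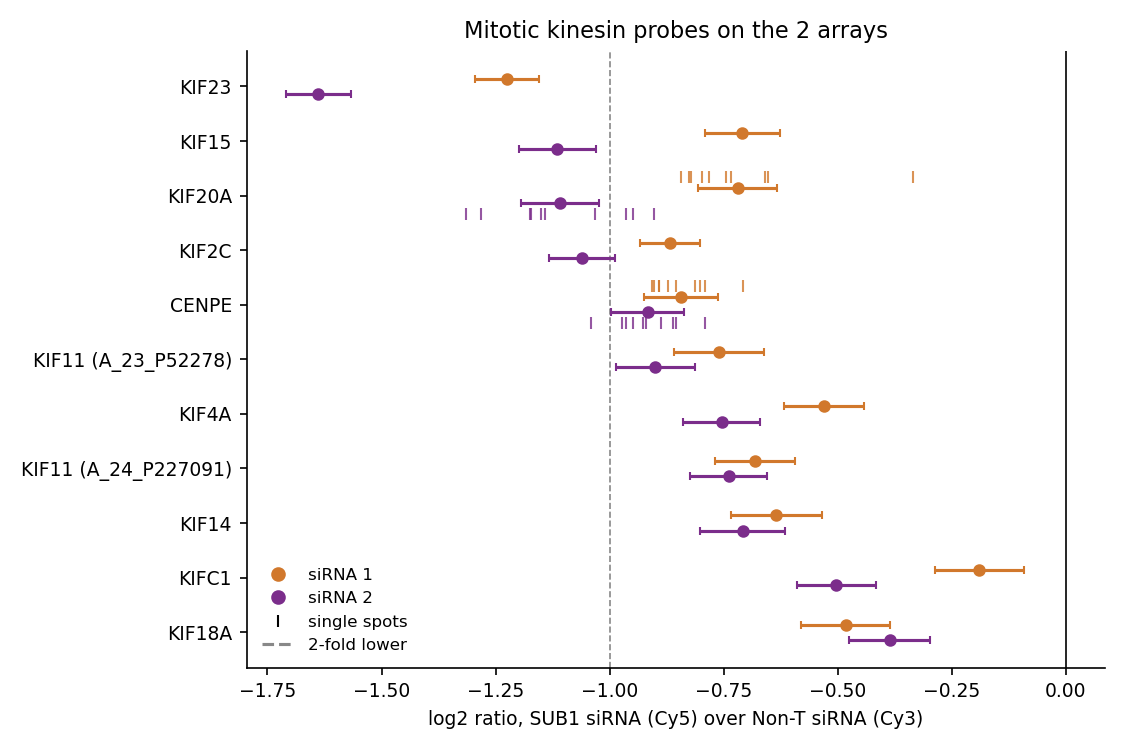
Log2 ratio (SUB1 siRNA over Non-T siRNA, x axis) for each of the 11 mitotic kinesin probes, with siRNA 1 in orange and siRNA 2 in purple. Bars are 1 technical SD of a single spot within an array at like brightness (not a replicate error), ticks are the 10 spots of the KIF20A and CENPE probes, and the dashed line is 2-fold lower; all points lie left of 0, and KIF23 lies lowest with both duplexes.

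The spot intensities behind these ratios were low for most members, so they are given for each channel, in scanner units before background correction. These values are not corrected for the dyes, and spots with no target also read lower in Cy5 than in Cy3 on both arrays. A probe's raw intensities can therefore not be read as a ratio between channels or arrays, nor be compared with those of another probe. Probe positions are those of the array files, in hg18.

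The first group builds and holds the bipolar spindle. KIF11, also called Eg5, slides antiparallel microtubules apart to separate the poles and is the target of a class of antimitotic compounds. Its brighter probe (chr10:94404607-94404666) read 283 in Non-T cells and 185 with siRNA 1 on the first array, and 238 in Non-T cells and 146 with siRNA 2 on the second. The log2 ratios were -0.68 and -0.74, so 62.3% and 59.9% of the Non-T level was left. The second KIF11 probe (chr10:94403444-94403503) read 217 in Non-T cells and 131 with siRNA 1, and 205 in Non-T cells and 112 with siRNA 2, with log2 ratios of -0.76 and -0.90. Both probes of this gene were thus below 0 with both duplexes and short of 2-fold in this processing. With siRNA 2 the brighter probe was past 2-fold with processed signals (-1.19), normexp without offset (-1.02) and negative control background (-1.10).

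KIF15 keeps the spindle bipolar beside KIF11 and can take over part of its work. Its probe (chr3:44869390-44869449) read 353 in Non-T cells and 234 with siRNA 1, and 300 in Non-T cells and 148 with siRNA 2. The log2 ratio was -0.71 with siRNA 1 and -1.11 with siRNA 2. With siRNA 2, 46.2% of the Non-T level was left. Its calls depended on the setting, since with the scanner software's processed signals it was past 2-fold with both duplexes (-1.05 and -1.73) and with median centring with neither (-0.57 and -0.99).

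KIFC1, also called HSET, walks toward the minus ends, focuses the poles and clusters extra centrosomes in cancer cells. Its intensity (chr6:33482406-33482599) was 203 in Non-T cells and 170 with siRNA 1, and 171 in Non-T cells and 123 with siRNA 2. With log2 ratios of -0.19 and -0.50 it was the least reduced member with siRNA 1, where 87.7% was left. The technical SD of a single spot at this brightness was 0.097 on that array. The ratios of KIFC1 were -0.43 and -0.92 with processed signals, and -0.10 and -0.43 with median centring.

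The second group moves and aligns chromosomes and trims the microtubules attached to them. CENPE carries chromosomes from the poles toward the spindle equator and sits at kinetochores. Its probe (chr4:104246788-104246847) was spotted 10 times and read 377 in Non-T cells and 231 with siRNA 1, and 317 in Non-T cells and 184 with siRNA 2. The log2 ratio was -0.84 ± 0.064 with siRNA 1 and -0.92 ± 0.071 with siRNA 2 (SD of 10 spots within 1 array). All spots were below -0.70 on both arrays, and 1 of the 10 with siRNA 2 reached 2-fold. The gene was past 2-fold with both duplexes with processed signals (-1.10 and -1.28), normexp without offset (-1.02 and -1.16) and negative control background (-1.03 and -1.17).

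KIF2C, also called MCAK, does not walk but takes microtubule ends apart and corrects faulty attachments at centromeres. Its probe (chr1:45005653-45005712) was read far above the negative controls, with 1763 in Non-T cells and 1169 with siRNA 1, and 1618 in Non-T cells and 946 with siRNA 2. Its log2 ratio was -0.87 with siRNA 1 and -1.06 with siRNA 2, just past 2-fold with the latter.

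KIF18A dampens the movements of chromosomes by acting at the plus ends of kinetochore microtubules. Its probe (between 28001918 and 28013513 on chromosome 11, a span of 11596 bases where most probes span 60) read 193 in Non-T cells and 138 with siRNA 1, and 183 in Non-T cells and 144 with siRNA 2. The log2 ratios were -0.48 and -0.39, and it was the least reduced member with siRNA 2, with 76.5% left in this processing. With processed signals the ratios of KIF18A were -0.75 and -0.59.

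The third group works late, at the midzone and the cleavage furrow. KIF4A binds chromosome arms and, with PRC1, sets the length of midzone microtubules. Its probe (chrX:69556872-69556931) read 274 in Non-T cells and 203 with siRNA 1, and 225 in Non-T cells and 143 with siRNA 2. The log2 ratios were -0.53 and -0.75. With siRNA 2 it was past 2-fold with processed signals (-1.23), normexp without offset (-1.06) and negative control background (-1.03). KIF4A has a nearly identical copy, KIF4B, so signal on this probe may be shared with it and its value is uncertain in that sense.

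KIF23, also called MKLP1, forms the centralspindlin complex with RACGAP1 and is needed to finish cytokinesis. It was the most reduced member on both arrays in this processing, but not with processed signals and siRNA 2, where KIF15 was as low (-1.73 against -1.72), and the second KIF11 probe was then lower with siRNA 1 (-1.40 against -1.26). Its probe (chr15:67527578-67527637) read 1519 in Non-T cells and 782 with siRNA 1, and 1235 in Non-T cells and 474 with siRNA 2. The log2 ratio was -1.22 with siRNA 1 and -1.64 with siRNA 2, or 2.34-fold and 3.11-fold lower. KIF23 took position 54 from the lowest of 19214 genes with siRNA 1 and position 29 with siRNA 2.

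KIF20A, also called MKLP2, brings Aurora B and its partners from the chromosomes to the midzone. Its probe (chr5:137549980-137550703), spotted 10 times, read 315 in Non-T cells and 203 with siRNA 1, and 281 in Non-T cells and 139 with siRNA 2. The log2 ratio was -0.72 ± 0.15 with siRNA 1 and -1.11 ± 0.14 with siRNA 2 (SD of 10 spots within 1 array). The spots, which are repeats within 1 array, lay between -0.84 and -0.33 with siRNA 1 and between -1.31 and -0.90 with siRNA 2. Of the 10 spots, 0 reached 2-fold with siRNA 1 and 7 with siRNA 2.

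KIF14 binds PRC1 and citron kinase and acts in the last steps of cytokinesis. Its probe (chr1:198789212-198789271) read 187 in Non-T cells and 118 with siRNA 1, and 157 in Non-T cells and 95.4 with siRNA 2, near the negative controls. The log2 ratios were -0.63 and -0.71.

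**Figure D3:**
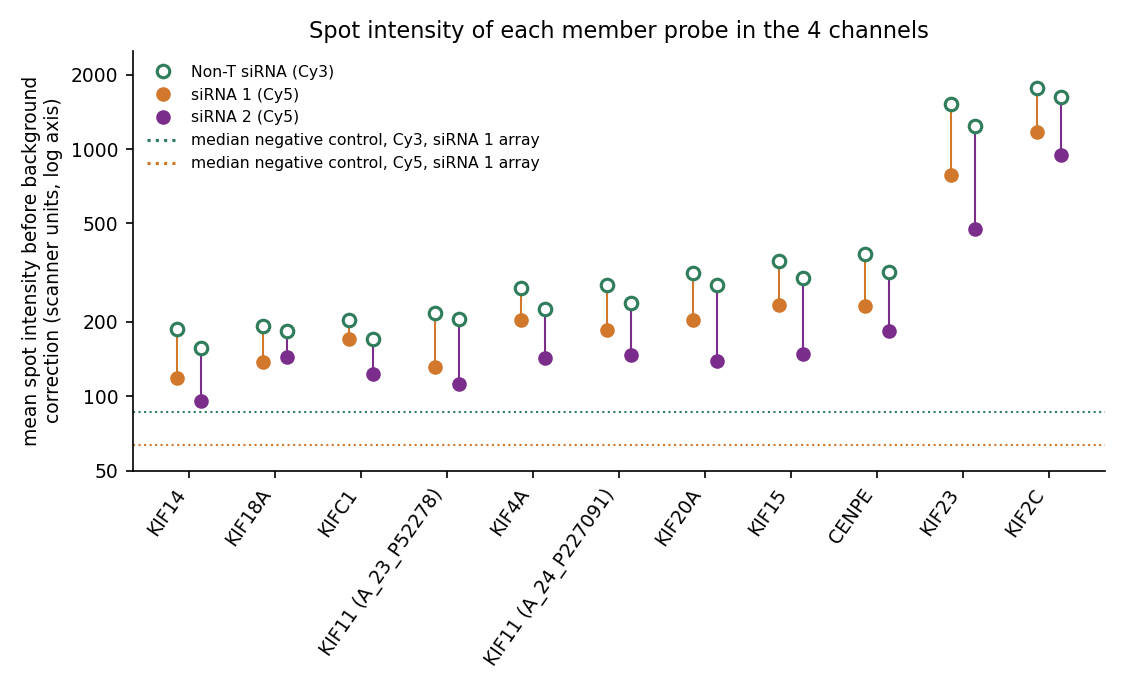
Mean spot intensity of each mitotic kinesin probe (y axis, scanner units on a log axis, before background correction) in the 4 channels, with Non-T siRNA as open green circles, siRNA 1 in orange and siRNA 2 in purple, each pair on 1 array joined by a line. The dotted lines are the median negative control spots of the siRNA 1 array, at 86.5 in Cy3 and 63.2 in Cy5. In every pair the filled point lies under the open one. Negative controls also read lower in Cy5 than in Cy3, so the distance within a pair is not the log2 ratio. Most pairs lie close to the dotted lines.

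In the order of the ratios, KIF23 stood apart from its neighbour by 3.74 technical SDs with siRNA 1 and 4.72 with siRNA 2. With processed signals and siRNA 2 this gap was lost, as KIF23 (-1.72) lay beside KIF15 (-1.73), KIF20A (-1.69) and KIF14 (-1.58). With processed signals and siRNA 1 it narrowed as well, as KIF23 (-1.26) lay near KIF14 (-1.17). The other 8 of 9 gaps between neighbours on each array were within 3 technical SDs, so the order among the other 9 genes was not resolved at neighbouring positions. The technical SD is that of a single spot, taken from probes of like brightness that were spotted 10 times. It is thus too wide for KIF20A and CENPE, whose ratios are means of 10 spots. It leaves out error from culture, extraction and labelling.

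Between the duplexes, 9 of 10 members had a lower ratio with siRNA 2 than with siRNA 1, where 50.4% of all genes did, and the median difference was -0.21. KIF18A was the exception, with a difference of 0.10. In lists described below, the ratio was also lower with siRNA 2 for 22 of 24 partners in division (median difference -0.29). It was so for 13 of 13 S phase genes (-0.36) and 11 of 11 tubulins (-0.26), but for 9 of 20 transport and other kinesins (0.09). Among the members, the difference exceeded 3 technical SDs for 3, which were KIF23 (-0.41, or -4.15 technical SDs), KIF15 (-0.41, or -3.45 technical SDs) and KIF20A (-0.39, or -3.19 technical SDs). For the other 7 it was within 3 technical SDs, and KIF11, KIF14, KIF18A and CENPE differed by less than 1. For CENPE and KIF20A, whose ratios are means of 10 spots, this SD of a single spot understates the distance. How many of all genes exceeded 3 technical SDs was not counted, so the 3 of 10 cannot be set against them. With 1 array for each duplex, no test of the difference between the duplexes was possible.

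The channels show where those differences lay, on a scale that sets both arrays to the same distribution of mean intensity. For KIF15 the Non-T level differed by -0.04 on the log2 scale between the arrays (siRNA 2 array minus siRNA 1 array) and the knockdown level by -0.44. For KIF23 the same differences were -0.08 and -0.49, and for KIF20A they were 0.03 and -0.36. In these 3 genes the Non-T readings of the arrays were closer to each other than the knockdown readings were, which was also so over all probes kept: the SD of the same difference was 0.12 in the Non-T channel and 0.30 in the knockdown channel. For KIF18A both channels were higher on the siRNA 2 array, by 0.13 and 0.22.

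The size of the ratios depended on the background correction and the normalization, and most members read close to background. Normexp with an offset of 50, as used above, adds a constant to both channels and draws the ratios of dim probes toward 0. With no background correction the members at least 2-fold lower were 1 of 10 with siRNA 1 and 4 of 10 with siRNA 2, beside 0.567% and 1.01% of all genes. With median centring they were 1 of 10 with each, beside 0.291% and 0.526%. With normexp and no offset they were 2 of 10 and 8 of 10, beside 0.963% and 1.68%. With the median negative control spot as background and no offset, which like the former was chosen after the data were seen, 3 of 10 members were at least 2-fold lower with siRNA 1 and 8 of 10 with siRNA 2, beside 0.989% and 1.75% of all genes. With the processed signals, which differ in background and in dye normalization at once, the counts were 5 of 10 and 8 of 10, beside 1.55% and 2.47%. KIF14 went from -0.63 and -0.71 to -1.17 and -1.58 with processed signals, and KIF15 with siRNA 2 went from -1.11 to -1.73. The second KIF11 probe went from -0.76 and -0.90 to -1.40 and -1.72, past 2-fold with both duplexes. KIF23 and KIF2C, read far above background, moved less, from -1.22 to -1.26 and from -0.87 to -0.96 with siRNA 1, and from -1.64 to -1.72 and from -1.06 to -1.15 with siRNA 2. KIF18A and KIFC1 stayed under 2-fold with both duplexes in all settings tried.

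**Figure D4:**
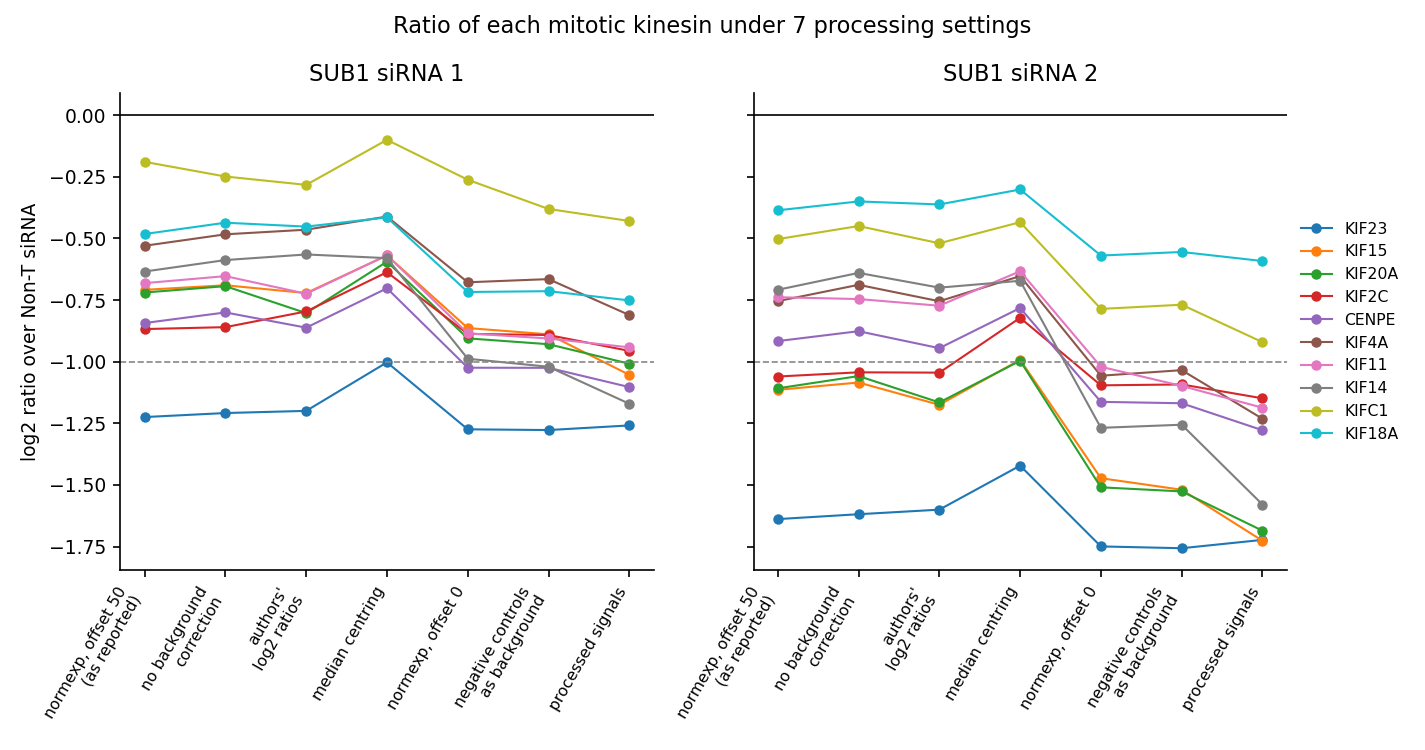
Log2 ratio of each mitotic kinesin (y axis, 1 colour per gene) under 7 processing settings (x axis), with siRNA 1 on the left and siRNA 2 on the right and the dashed line at 2-fold lower. Every ratio is below 0 in every setting, and KIF14 with siRNA 2 goes from -0.71 as reported to -1.58 with processed signals.

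Ratios of members with and without a CHR in the printed window overlapped. With siRNA 1 the 7 with a CHR lay between -1.22 (KIF23) and -0.19 (KIFC1), and the 3 without one between -0.87 (KIF2C) and -0.72 (KIF20A). With siRNA 2 the bounds were -1.64 (KIF23) and -0.39 (KIF18A) for the 7, and -1.11 (KIF20A) and -0.92 (CENPE) for the 3. KIF18A and KIFC1, the least reduced members, both held a CHR and an NF-Y box.

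Kinesins outside the 10 were not alike. Of the other kinesins with a role in division, KIF18B, which shortens astral microtubules, had log2 ratios of -0.68 and -0.80, and KIF22, a chromokinesin, had -0.40 and -0.54. KIF2A, which takes microtubules apart at the poles, read 0.21 and -0.25, and KIF20B, which acts in late cytokinesis, read 0.04 and -0.03 on a dim probe. KIF2B was not well above background. None of these was 2-fold lower in this processing, but KIF18B with siRNA 2 read -1.19 with processed signals. Of 27 kinesins of transport and other roles, 20 were measured, with a median log2 ratio of 0.05 (siRNA 1) and 0.07 (siRNA 2). The lowest were KIF7 with siRNA 1 (-0.40) and KIF1B with siRNA 2 (-0.36), the highest KIF5C (0.86) and KIF16B (0.41), each by its brightest probe, and 0 of 20 were 2-fold lower or higher with either. The 4 probes of KIF1B disagreed, lying between -0.36 and 0.25 with siRNA 2 and between -0.46 and 0.43 with siRNA 1. The 4 measured cargo adaptors of transport kinesins had medians of -0.03 and 0.26.

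Partners of the members in division also had ratios below 0, of varied size, and in limma 0 of 24 passed an adjusted p of 0.05 (23 of 24 had a lower mean at an unadjusted p under 0.05). TPX2, which targets KIF11 and KIF15 to the spindle, had log2 ratios of -0.96 and -1.23. PRC1, which bundles midzone microtubules and binds KIF4A and KIF14, had -0.84 and -1.12. RACGAP1, which pairs with KIF23, had -0.60 and -0.84, and AURKB, the kinase that KIF20A brings to the midzone, had -0.66 and -0.86. Over the list of 24 partners all were below 0 on each array, with medians of -0.84 and -1.11, and 6 and 17 of 24 were at least 2-fold lower, beside 0.609% and 1.07% of all genes. The lowest were PLK1 with siRNA 1 (-1.41) and CCNB2 with siRNA 2 (-1.74), and CKAP5 was the highest with both (-0.09 and -0.14). Like the members, this list was chosen with earlier results of these data known, so its counts are not an independent contrast.

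Genes of DNA replication and S phase had medians of -0.35 and -0.70 over 13 genes. RRM2 (-1.14) and CCNE1 (0.62) were the extremes with siRNA 1, CDT1 (-1.34) and MCM6 (-0.02) those with siRNA 2. At least 2-fold lower were 1 of 13 (siRNA 1) and 4 of 13 (siRNA 2), beside 0.609% and 1.07% of all genes. Tubulins, the track of the kinesins, had medians of -0.38 and -0.62 over 11 measured genes. Of these, 0 and 2 of 11 were at least 2-fold lower, beside 0.609% and 1.07% of all genes. Below 0 were 10 and 13 of the 13 S phase genes and 10 and 11 of the 11 tubulins, beside 45.9% and 46.4% of all genes. These lists were also chosen with earlier results of these data known. The part of a change in dividing cells in the kinesin ratios was not tested.

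**Figure D5:**
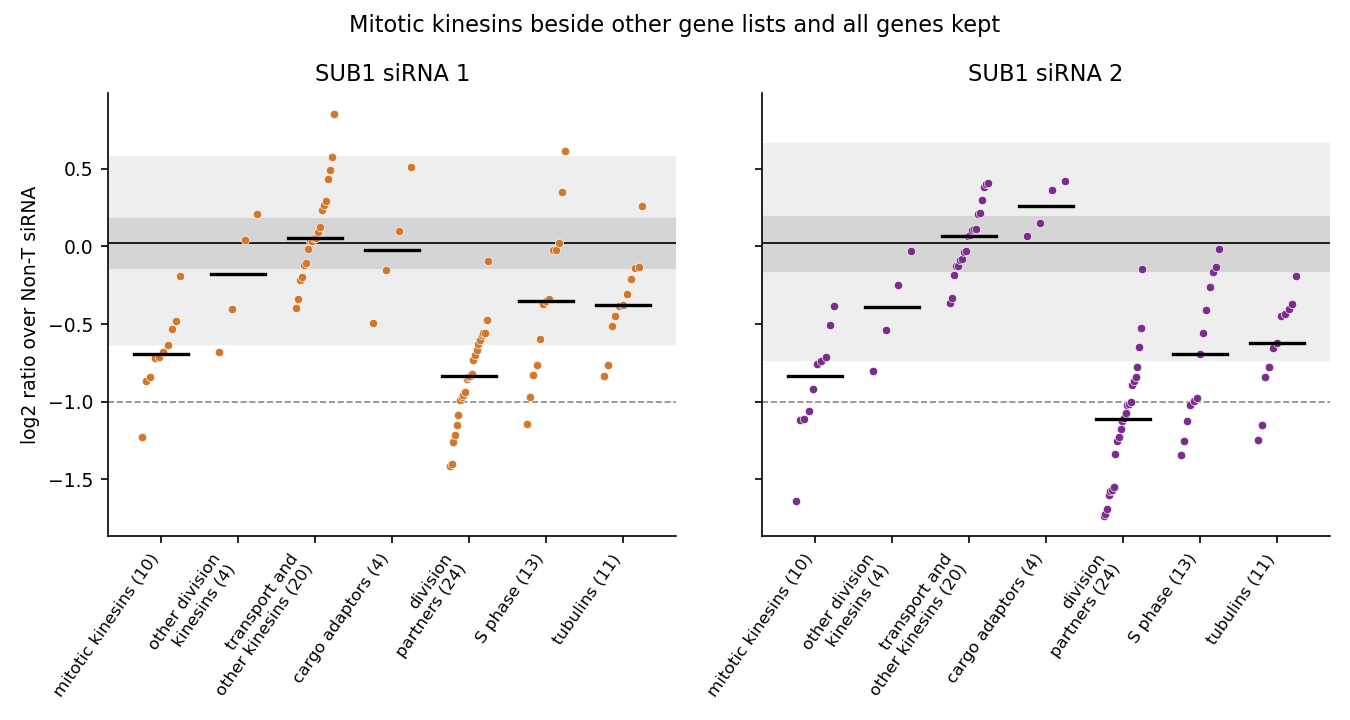
Log2 ratio of each measured gene (points, y axis) in 7 gene lists (x axis, number measured in brackets), with siRNA 1 on the left and siRNA 2 on the right; thick lines are list medians, the dark and light grey bands hold the middle 50% and 95% of all genes kept, and the dashed line is 2-fold lower. Medians of the mitotic kinesins lie at -0.70 and -0.84, those of the transport and other kinesins at 0.05 and 0.07.

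Outside these lists, the genes whose pair of log2 ratios lay nearest to the members' medians were FIRRM (-0.70 and -0.83), LIF (-0.71 and -0.84) and CKAP2L (-0.70 and -0.82). The distance, taken over 2 arrays on the log2 scale, was 0.0095, 0.012 and 0.014.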

How the data were processed

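Members and gene lists were chosen with earlier results of these data known. The authors scanned both arrays with Agilent Feature Extraction 9.5.1.1 and deposited spot intensity in both channels (mean, local background, processed). They also deposited the software's log10 ratios, which were only looked at, and a table of log2 ratios after loess with agilp, used as an alternative. Here mean intensities were background-corrected by normexp (offset 50) and control spots dropped. Log2 ratios of Cy5 over Cy3 were then normalized by loess per array (span 0.3; limma 3.58.1, R 4.3.3). Spots marked as outliers (112 and 100) were dropped, and repeated spots were averaged. Probes stayed in when, on both arrays, a share of 0.5 or more of the spots exceeded background clearly in Cy3 or Cy5, and the brightest probe stood for its gene. Names came from RefSeq accession, symbol, synonym or gene ID where matched (28539 of 41000 probes). The mean ratio was tested against 0 (lmFit, eBayes, Benjamini-Hochberg over all genes). The technical SD is the median spot SD of probes spotted 10 times within 0.5 log2 units of brightness. Precision is limited by the number of arrays.

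Every member and each of its probes is named, with SUB1, all other division kinesins, 4 partners, the extremes of some other lists and the 3 nearest genes. Motifs were counted in the RefSeq promoter table of GRCh38.p14 (all 10 members matched), on both strands. Alternatives were the background correction, the normalization, the authors' ratios, the filter on dim probes, the probe per gene, outlier spots, the eBayes trend and leaving out each array. Sequences of the proteins and the position of probes within exons were not analysed here.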

Additional observations from a re-analysis of the deposited data

How the results depend on the processing

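All 10 members were below 0 on both arrays under each setting tried. With processed signals the members at least 2-fold lower numbered 5 (siRNA 1) and 8 (siRNA 2), the median with siRNA 2 was -1.25, the median difference between the duplexes was -0.41 and the median of the mean ratios was -1.13. With median centring 1 member was 2-fold lower with siRNA 2, the median of the mean ratios was -0.68, and KIF15, KIF20A and KIF2C were no longer past 2-fold with siRNA 2. This centring put the median of all genes at 0.13 and 0.12, and of all genes changed at least 2-fold the share that was higher went from 25.5% to 71.0% (siRNA 1) and from 36.5% to 72.4% (siRNA 2). That share was 72.3% and 67.7% with processed signals, 52.4% and 53.4% with no offset, 53.9% and 54.8% with negative control background, and 36.7% and 47.4% in the authors' ratios. With normexp and no offset, chosen after the data were seen, 2 and 8 members were 2-fold lower, the median with siRNA 2 was -1.13 and the median of the mean ratios -1.04. With negative control spots as background, also added later, the counts were 3 and 8, and the medians -1.13 and -1.05. The cause was not tested. In limma 0 genes passed an adjusted p of 0.05 without background correction, with processed signals, median centring, the authors' ratios, no offset or negative control background, and 1 gene in the fit reported. Unadjusted p-values under 0.05 numbered 4013 there and between 3439 and 5705 under the alternatives. Members' adjusted p lay between 0.058 and 0.242 over all settings. Leaving out an array gave median ratios from -0.84 to -0.70, as values with no test. The slide could not be a block, since both arrays lie on it. No paired analysis was possible because the samples form 1 group with no shared replicate numbers; each ratio already sets a knockdown against the control on its array. Of the values for single members, 178 kept their side of 2-fold, 19 went past it and 3 fell short of it. Many of the 178 did not move at all, since changing the filter on dim probes or keeping outlier spots left every member's ratio as it was. Dim signals limit the sizes. Median spot intensities were 128 and 116 (siRNA 1 array) and 114 and 105 (siRNA 2 array), near the negative controls.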

Other observations

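Other genes that held both a CHR and an NF-Y box between 70 bases before and 10 after their start were also counted, a group chosen after the members' promoters were seen and so given with no test. There were 92 such genes among those kept, without the 10 kinesins. Their log2 ratios had medians of -0.24 (siRNA 1) and -0.14 (siRNA 2), and 6 (6.52%) and 13 (14.1%) of them were at least 2-fold lower. Among all 10625 other genes kept that had a RefSeq promoter in the table, 77 (0.725%) and 117 (1.1%) were at least 2-fold lower and the medians were 0.02 and 0.01. With the NF-Y box, whether or not a CHR was present, 29 (1.40%) and 46 (2.22%) of 2074 genes were at least 2-fold lower. With a CHR, whether or not an NF-Y box was present, the same held for 11 (2.73%) and 25 (6.20%) of 403 genes. Most of the 92 genes were thus not 2-fold lower with either duplex.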
